A study of Mus musculus with 17 samples.

Results

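STAG2 occupancy was measured by CUT&RUN in peeled urothelium, the epithelium of the bladder, of Stag2-WT mice (WT below) and Stag2-KO mice (KO), both 1 week after TMX induction. The libraries made with the STAG2 antibody were chosen by their labels and number 4 of the 17 samples of the series: WT replicates 1 and 2 and KO replicates 1 and 2, all from batch 1 and from approximately 500000 cells per condition. TMX was given to both genotypes, and the recombinase, the cells that express it and the share of cells that recombined are not given in the sources used here. In CUT&RUN a nuclease is targeted by an antibody to the protein of interest in nuclei, and the DNA that it cuts free is sequenced. The deposited values are peak lists, so the comparison of WT with KO concerns where peaks were called and how strong each was within its own library.

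STAG2 is one of the alternative subunits through which cohesin, the ring of SMC1A, SMC3 and RAD21, engages chromatin. Cohesin is loaded at active chromatin, extrudes DNA loops, halts at sites bound by CTCF, and gathers at promoters and enhancers as well. STAG1 is the related subunit that can take the place of STAG2 in the ring, and STAG2 is among the genes often inactivated in bladder cancer. An antibody against STAG2 is therefore used to chart one form of cohesin, and cells without the protein serve as the measure of its background.

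The 4 lists held 285257 to 350931 peaks on chromosomes 1 to 19, deposited down to p 0.05. A peak was called at q 0.01, a false discovery rate computed by the authors' peak caller within each library. That left 25604 and 13193 peaks in WT replicates 1 and 2, and 1229 and 6752 peaks in KO replicates 1 and 2. The background coverage recovered from the peaks was 1.74 and 1.36 fragments per base in WT and 1.74 and 2.03 in KO, so the KO values lay inside or above the WT range. WT replicate 1 stood apart: its called peaks had a median width of 1164 bp against 716 to 855 bp in the other libraries, and 33.3% of them lay in gene flanks against 19.2% to 19.4%. The KO libraries differed from each other as well, replicate 2 having more called peaks in each class of site. Over the Stag2 gene itself (chromosome X, 42149297 to 42277186) the deposited lists held 6 and 12 peaks in WT and 1 and 2 in KO, of which 1, in WT replicate 2, was called. Peaks over a gene do not measure its DNA or protein, so the KO label was not checked by them. Among 29 luminal urothelium genes 10 were marked in both WT libraries, and among 15 basal ones 1, against 13.1% of all genes. Of 12 fibroblast, 10 smooth muscle, 14 immune and 10 endothelial genes 0 were, but lists this short would hold few at that share.

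The following sequences show promoters among the best ranked gene ends at which STAG2 signal stayed or went. They are the 250 bases upstream of the RefSeq start (GRCm38.p6, the assembly of mm10), written in the direction of the gene. CCAAT boxes on either strand (CCAAT or ATTGG, the element bound by NF-Y) are in capitals. The first 3 were called in all 4 STAG2 libraries with the summit inside the stretch printed, and the last 2 in both WT libraries with no KO peak reaching the gene end. Higher ranked Tsen54, without a summit in that stretch, and Ell, whose end KO peaks reached, are not shown and hold 0 CCAAT boxes each. For Pi4k2a the RefSeq start lies 287 bp inside the gene, so its stretch is not upstream of the gene end used here.
Ankrd50 (chr3:38484851-38485100, minus strand): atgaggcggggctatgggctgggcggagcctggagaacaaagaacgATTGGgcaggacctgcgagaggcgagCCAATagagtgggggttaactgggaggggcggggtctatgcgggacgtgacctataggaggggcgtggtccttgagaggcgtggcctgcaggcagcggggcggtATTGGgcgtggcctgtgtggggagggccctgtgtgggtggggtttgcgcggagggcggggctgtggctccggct
Uvrag (chr7:99141145-99141394, minus strand): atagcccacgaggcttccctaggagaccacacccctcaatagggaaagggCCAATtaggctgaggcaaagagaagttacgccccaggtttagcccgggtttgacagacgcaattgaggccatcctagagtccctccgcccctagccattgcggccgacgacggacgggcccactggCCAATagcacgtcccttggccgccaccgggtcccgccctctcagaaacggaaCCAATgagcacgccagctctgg
Inpp5a (chr7:139388859-139389108, plus strand): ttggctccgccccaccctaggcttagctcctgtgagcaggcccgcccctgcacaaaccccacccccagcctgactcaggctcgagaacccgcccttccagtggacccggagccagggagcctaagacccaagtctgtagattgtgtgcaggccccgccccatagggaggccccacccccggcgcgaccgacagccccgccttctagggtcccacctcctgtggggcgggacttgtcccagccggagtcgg
Pi4k2a (chr19:42090185-42090434, plus strand): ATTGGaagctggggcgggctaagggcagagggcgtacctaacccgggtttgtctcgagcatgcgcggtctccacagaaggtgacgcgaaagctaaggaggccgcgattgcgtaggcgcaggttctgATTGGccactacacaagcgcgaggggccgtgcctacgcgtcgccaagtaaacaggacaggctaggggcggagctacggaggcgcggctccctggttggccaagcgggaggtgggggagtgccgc
Rffl (chr11:82871211-82871460, minus strand): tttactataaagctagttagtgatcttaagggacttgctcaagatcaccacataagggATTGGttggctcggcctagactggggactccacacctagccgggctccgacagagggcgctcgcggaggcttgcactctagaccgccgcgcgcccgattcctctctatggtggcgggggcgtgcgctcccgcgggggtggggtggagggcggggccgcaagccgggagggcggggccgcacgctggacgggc
Ankrd50 and Uvrag hold 3 CCAAT boxes each and Inpp5a holds 0, while Pi4k2a holds 2 and Rffl 1, so these promoters do not sort by that element one by one.

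Every class of site had fewer called STAG2 peaks in KO. Gene ends and intergenic sites did not separate beyond the spread of the libraries. Relative to flanks and gene bodies, gene ends made up more of the called KO peaks in both libraries. That did not hold for the 1000 best peaks of each library. Peaks were classed by their summit: at a gene end (no more than 500 bp from where a protein-coding gene starts or stops), in a flank (within 5 kb), in a gene body (inside a gene and further from its ends) or intergenic. Gene ends held 5801 and 3317 peaks in WT and 438 and 1859 in KO. Flanks held 8538 and 2548 in WT and 239 and 1299 in KO. Gene bodies held 6053 and 3512 in WT and 228 and 1769 in KO, and intergenic sequence held 5212 and 3816 in WT and 324 and 1825 in KO. In each class both KO libraries lay below both WT libraries.

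**Figure D1:**
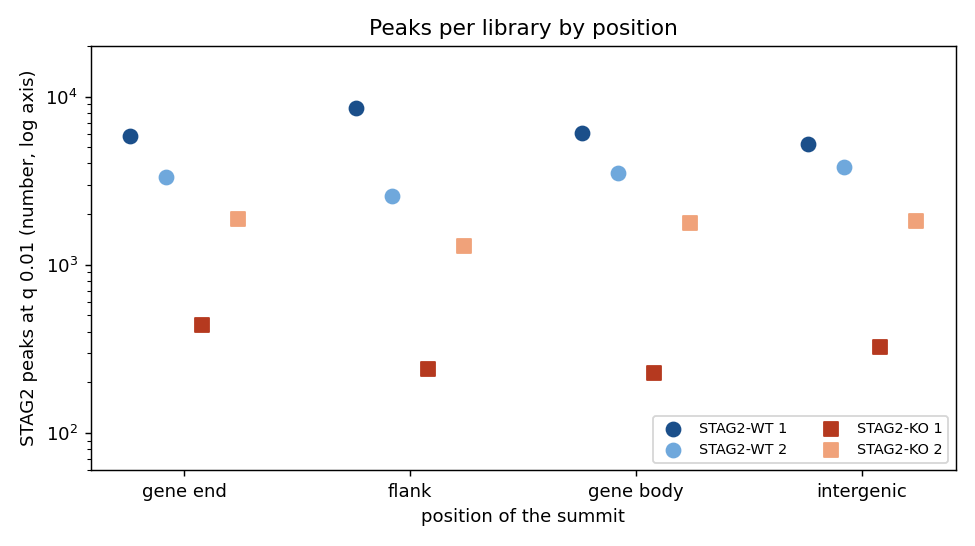
Number of STAG2 peaks at q 0.01 (log axis) in each of the 4 libraries, by position of the summit. Circles are WT and squares are KO libraries. In each class both squares lie below both circles, and KO 1 is lowest throughout.

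On the log2 scale the number of peaks in KO relative to WT was -2.28 at gene ends (SD between libraries 0.57 in WT and 1.47 in KO, n = 2 each). It was -2.54 in intergenic sequence (SD 0.32 and 1.76), -2.86 in gene bodies (SD 0.56 and 2.09) and -3.07 in flanks (SD 1.23 and 1.73). Each difference had an exact two-sided permutation p of 0.333, the smallest that 2 libraries against 2 allow. Gene ends fell by less than intergenic sites by 0.25 on that scale, with an exact permutation p of 0.667. The number of gene-end peaks per intergenic peak was 1.11 and 0.869 in WT and 1.35 and 1.02 in KO, so these ratios overlapped. Gene-end peaks per gene-body peak were 0.958 and 0.944 in WT and 1.92 and 1.05 in KO, and per flank peak 0.679 and 1.302 in WT and 1.83 and 1.43 in KO. For both ratios the KO values lay above the WT values, by 0.58 and 0.78 on the log2 scale (exact permutation p 0.333 each). The low value of flanks rested on WT replicate 1: without it the log2 ratio was -2.19 in flanks, -1.88 at gene ends, -2.47 in gene bodies and -2.31 in intergenic sequence. A q of 0.01 stood at a different p in each library, and at a common −log10 p of at least 7 there were 10737 and 7051 peaks in WT and 754 and 3148 in KO. At that common threshold the log2 ratio was -2.21 at gene ends and -2.08 in intergenic sequence, so the order of these classes turned.

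Peaks of one WT library were also looked up in the 3 libraries that had no part in choosing them. The share found is limited by the number of called peaks in the library searched, so it is not support apart from the counts above. Of the gene-end peaks of WT replicate 1, 43.1% were found in WT replicate 2, 6.999% in KO replicate 1 and 26.2% in KO replicate 2. Its intergenic peaks were found at 33.7%, 4.51% and 18.7%, its gene-body peaks at 27.1%, 2.45% and 15.1%, and its flank peaks at 25.5%, 2.64% and 13.6%. Peaks of WT replicate 2 were found more often in every library. Its gene-end peaks were found at 90.8% in WT replicate 1, 12.1% in KO replicate 1 and 43.9% in KO replicate 2, and its intergenic peaks at 46.5%, 5.97% and 28.8%. Thus in all classes, and from either WT library, fewer peaks were found in each KO library than in the other WT library. For KO replicate 2 the share found relative to the other WT library was 0.608 at gene ends and 0.555 in intergenic sequence from WT replicate 1, but 0.483 and 0.619 from WT replicate 2, so the order of these classes turned with the WT library. For KO replicate 1 gene ends were above intergenic sequence from both, at 0.162 and 0.134 from WT replicate 1 and at 0.133 and 0.128 from WT replicate 2. Conversely, 96.3% of the called gene-end peaks of KO replicate 1 were found in WT replicate 1. The deposited lists are closer in length. There 84.8% of the called gene-end peaks of WT replicate 1 overlapped a peak of WT replicate 2. For KO replicates 1 and 2 that share was 65.1% and 78.9%.

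**Figure D2:**
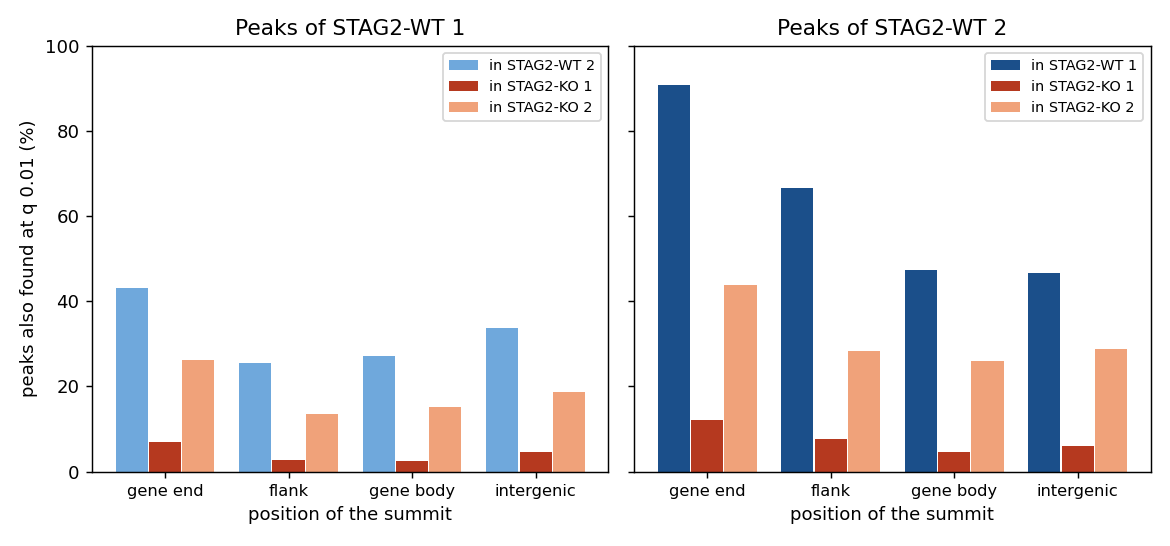
Share of the called peaks of WT 1 (left) and WT 2 (right) that overlapped a called peak of the other WT library and of each KO library, in percent, by class. In every group of bars the other WT library is highest and KO 1 lowest.

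Merging called peaks that shared at least 1 bp gave 32059 regions over the 4 libraries, of which 7839 (24.5%) held a peak in both WT libraries. These WT regions comprised 2684 at gene ends, 1812 in flanks, 1614 in gene bodies and 1729 in intergenic sequence. Of the WT regions 4243 (13.2% of all regions) had no called KO peak, 2773 had a peak in 1 KO library and 823 (2.57% of all regions) had one in both. The share without a called KO peak was 49.4% at gene ends, 52.1% in intergenic sequence, 56.6% in gene bodies and 61.0% in flanks. The share with a peak in both KO libraries was 13.0%, 10.8%, 7.74% and 8.94% in the same order. Of gene-end regions 14.5% were found in KO replicate 1 and 49.1% in KO replicate 2 (mean 31.8% ± 24.4, SD, n = 2), and of intergenic regions 12.3% and 46.5% (29.4% ± 24.2, SD, n = 2). At this threshold the gap between these classes was smaller than the gap between the KO libraries. With regions drawn from the deposited lists the classes lay further apart: the mean share found in a KO library was 69.1% at gene ends, 47.0% in flanks, 34.7% in gene bodies and 29.7% in intergenic sequence.

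Most regions without a called KO peak overlapped a weaker peak in a KO list. In the deposited lists, which reach down to p 0.05, both KO libraries had a peak in 5924 of the 7839 WT regions (75.6%), and neither had one in 297 (3.79%, or 0.926% of all regions), which is 7.0% of the 4243 regions without a called KO peak. How often lists of this length overlap sites without signal was not tested. Those 297 made up 2.12% of the gene-end, 3.53% of the flank, 5.20% of the gene-body and 5.32% of the intergenic WT regions. The fold of a peak, the authors' own ratio of fragments at the summit to the background of that library, was not tested between genotypes. In the 823 regions called in all 4 libraries, termed residual below, its median was 6.13 and 7.99 in WT and 4.62 and 5.32 in KO. In regions called in both WT libraries alone it was 4.40 and 4.60 in WT, and 2.61 and 2.76 at the KO peaks that fell short of the threshold. Residual regions were therefore the stronger ones in WT and had lower folds in KO. They were also broader, with a median peak width in WT replicate 2 of 1206 bp against 757 bp in regions without a called KO peak.

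The share of WT regions found in KO was highest where WT folds were highest, without a steady rise over the weaker regions. Regions were ordered by the lower of their WT folds and divided into 5 groups of near equal size. In the lowest group 4.02% of gene-end, 4.81% of flank, 4.40% of gene-body and 5.17% of intergenic regions were residual. In the highest group, with both WT folds at 5.40 or above, the shares were 31.2%, 28.3%, 29.9% and 31.2%. Groups 1 to 3 showed no rise: their shares were at most 6.34%, and over all classes 4.59%, 3.00% and 4.60%. In group 2 the share was 4.03% at gene ends and 4.90% in intergenic sequence against 1.59% in flanks and 1.33% in gene bodies, and in group 4 they lay between 7.82% and 12.5%. KO replicate 2 alone had a called peak in 73.9% of gene-end and 79.3% of intergenic regions of the highest group, and KO replicate 1 in 32.3% and 31.5%. Flanks had the lowest share in KO replicate 2 in each group, for example 20.4% in group 2 against 32.2% at gene ends. These are shares of regions within the same 4 libraries and carry no test.

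**Figure D3:**
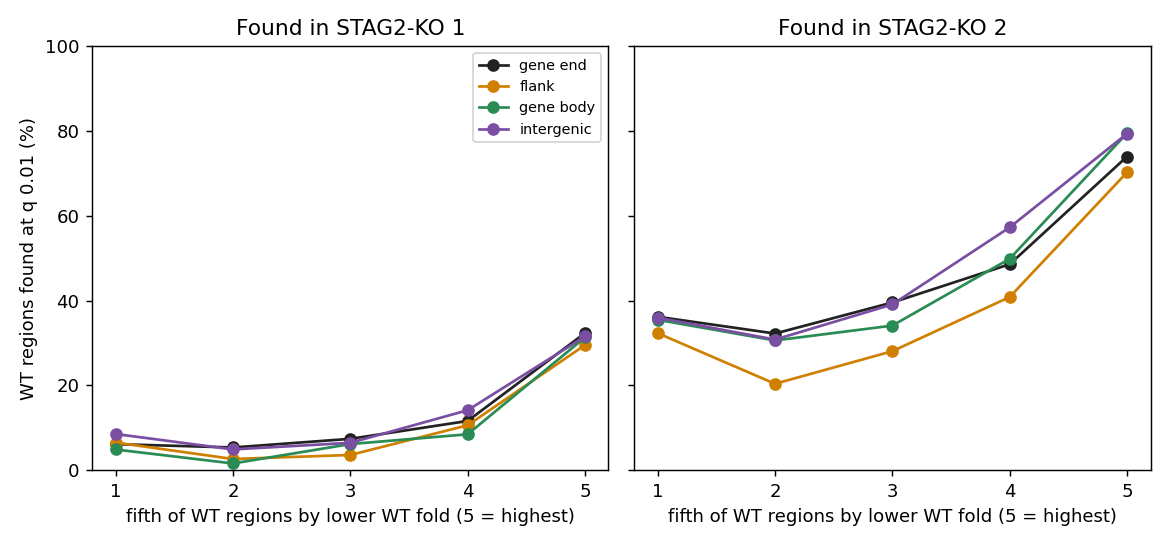
Share of WT regions with a called peak in KO 1 (left) and KO 2 (right), in percent, against 5 groups of rising WT fold, one line per class. The lines rise mainly over groups 4 and 5, reaching 29.5% to 32.3% in KO 1 and 70.2% to 79.4% in KO 2, and the line of flanks is lowest in KO 2.

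By gene, 2713 of 20665 protein-coding genes (13.1%) were marked at an end in both WT libraries. Of all genes 1323 (6.4%) were marked in both WT and in no KO library, 1025 (4.96%) in both WT and 1 KO library, and 365 (1.77%) in all 4. Both KO libraries marked 415 genes (2.01%), with or without WT. A KO peak with its summit further out reached into the window of 49 of the 1323 genes (3.70%). The residual gene ends with the best ranks in KO spanned many functions. The strongest was the end shared by Caskin2, a scaffold protein, and Tsen54, a subunit of the tRNA splicing endonuclease, with folds of 19.6 and 16.01 in WT and 9.23 and 13.2 in KO. Both KO values there lay below both WT values. Ankrd50, an ankyrin repeat protein of endosomes, had folds of 7.28 and 17.6 in WT and 9.48 and 10.9 in KO, with overlapping groups. Uvrag, a regulator of autophagy, had 9.82 and 14.1 in WT and 8.24 and 11.3 in KO, which also overlap. Inpp5a, an inositol phosphate phosphatase, had 7.64 and 9.58 in WT and 10.2 and 9.39 in KO, again overlapping. Srgap2, whose end lies within 1 kb of one of Fam72a, had 12.8 and 16.3 in WT and 7.45 and 11.6 in KO. The mitochondrial reductase gene Fdxr had 8.52 and 9.33 in WT and 7.94 and 9.70 in KO, and Sertad2 had 6.61 and 9.81 in WT and 7.19 and 9.76 in KO. Pabpn1, which binds the poly(A) tails of nuclear RNA, was the one end among these at which both KO folds (6.94 and 9.91) exceeded both WT folds (3.55 and 5.38). Tmem220 closed this group with 5.86 and 13.3 in WT and 6.97 and 9.15 in KO.

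Among the ends with the highest WT folds and no KO summit in the deposited lists (100 genes, 0.484% of all), Pi4k2a, a phosphatidylinositol kinase of endosomes, had folds of 7.28 and 10.1 in WT. Rffl, a ubiquitin ligase, had 6.06 and 10.3, and the end of Fam83d, a spindle protein, had 5.47 and 10.2. Psmg4, a proteasome assembly chaperone, had 7.39 and 5.94, and Ywhah, a 14-3-3 protein, had 5.46 and 8.62. No KO peak of any strength reached these 5 ends. Ell, an elongation factor with WT folds of 7.92 and 12.2, ranked first by summits, but KO peaks with folds of 4.54 and 5.55 reached its window from summits further out. The same held for Nlgn2 in KO replicate 2 (fold 5.48). Tigd2, Gart and Adss completed the 10 and had WT folds of 5.18 to 5.94, with KO peaks of 1.83-fold to 2.88-fold reaching in.

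Few sites were called in KO alone. Both KO libraries and no WT library had a called peak in 9 of 32059 regions (0.0281%) and at 7 genes (0.0339%). The genes with the best ranks were Ugt1a6a, in the cluster of UDP-glucuronosyltransferases, Sptlc3, a subunit of serine palmitoyltransferase, Myo1g, and Fgfr1op2 and Ints13, which share an end. Their KO folds lay between 4.18 and 5.82. Genes were counted by summits near an end, and of these genes Myo1g alone had its end in one of the 9 regions. At the other ends a called WT peak overlapped the same region, or the KO peaks lay in different regions. In each of the 9 regions at least 1 WT list held a peak below the threshold, the higher WT fold being 2.24 to 3.52, as at an intergenic site 6868 bp from an end of Trp63, the gene of the epithelial regulator p63, with WT folds of 2.53 and 3.36 and KO folds of 4.17 and 3.76.

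Away from gene ends, the best ranked residual sites reached folds similar to those at gene ends. In gene bodies the best ranked lay in Rhobtb1 (chr10:69184570-69189155), with folds of 15.1 and 16.6 in WT and 10.1 and 11.6 in KO. The site in Iffo2 (chr4:139573977-139576962) had 6.63 and 13.7 in WT and 6.76 and 8.91 in KO. Those in Zfp516, Sulf1 and Stard13 had KO folds of 6.51 to 9.35. Of the intergenic sites, one 7.82 kb from Mtap (chr4:89125537-89130350), the gene of an enzyme of methionine salvage, had folds of 13.6 and 17.5 in WT and 9.13 and 13.9 in KO. One 32.0 kb from Naif1 (chr2:32486962-32487906) had 15.8 and 23.1 in WT and 8.32 and 11.0 in KO. Sites near Zfp945, Foxq1 and Tnfrsf21 had KO folds of 6.41 to 9.95. Each of these 10 distal sites was called in at least 2 of the 5 LIN54 libraries. WT folds of the strongest distal sites without any KO peak overlapped those of the residual sites. In gene bodies they lay in Capn2 (5.0 and 7.77), Itgb1 (4.87 and 5.76), 1700025G04Rik, Babam2 and BC052040. Of these, the site in Babam2 was called in 4 LIN54 libraries and that in BC052040 in 3. Those in Capn2 and Itgb1 were called in 1 each and that in 1700025G04Rik in 0. In intergenic sequence they lay near Gm15319 (6.57 and 6.37), Hsf2, Micu2, Mbip and Zfp36l2, and none of these 5 intergenic sites was called in a LIN54 library.

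Gene groups are described by their counts beside those of all genes. Of all genes 13.1% were marked in both WT libraries, 48.8% of these having no called KO peak and 13.5% being residual. The list members given with folds were picked by their WT ranks, a choice that by itself favours lower folds in KO than in WT. Of 25 immediate early genes, which respond within minutes to stimuli, 15 were marked in both WT libraries, 7 of them had no called KO peak and 4 were residual (Ier5, Fos, Dusp1 and Egr1). Fos, a subunit of AP-1, had folds of 10.4 and 15.2 in WT and 6.26 and 7.28 in KO. Dusp1, a phosphatase of MAP kinases, had 7.80 and 9.29 in WT and 4.91 and 7.04 in KO, and at both genes the KO values lay below the WT values. Of the 10 marked luminal genes 4 had no called KO peak (Sprr1a, Upk3b, Krt19 and Grhl2), 5 had a peak in 1 KO library and Upk2 was residual. Upk2, a uroplakin of the urothelial surface plaque, had folds of 10.1 and 11.4 in WT and 4.36 and 8.25 in KO. Krt8, a luminal keratin, had 6.90 and 11.9 in WT, no peak in KO replicate 1 and 6.32 in KO replicate 2. Cldn4, a tight junction claudin, had 8.23 and 11.5 in WT and 2.52 and 5.84 in KO, of which the value of replicate 1 was below the threshold. Of 15 basal genes 1, Sox4, was marked in both WT libraries, and it had no called KO peak.

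Cell cycle genes known as DREAM targets were listed by phase. Of 49 genes of the G1/S list 15 were marked in both WT libraries and 9 of these had no called KO peak. Asf1b, a histone chaperone, had folds of 9.36 and 16.4 in WT and 2.55 and 4.12 in KO. Both KO values there lay below both WT values. Mcm5, a subunit of the replicative helicase, was below the threshold in both KO libraries (6.57 and 6.27 in WT, 2.21 and 1.91 in KO). Of 43 genes of the G2/M list 10 were marked in both WT libraries, 6 had no called KO peak and 1, Cdca2, was residual. Cep55, needed to part daughter cells, had 12.5 and 6.58 in WT and 3.06 and 3.75 in KO. Ribosomal protein genes gave 27 of 80 marked in both WT libraries, 10 without a called KO peak and 2 residual, and histone genes gave 20 of 67, 12 and 1. Of 383 zinc finger genes 52 were marked, 19 had no called KO peak and 9 were residual, among them Zfp654 with folds of 7.08 and 13.2 in WT and 7.06 and 7.19 in KO. None of 18 imprinted, 57 clustered protocadherin and 1104 olfactory receptor genes was marked in both WT libraries.

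Of the genes of cohesin and its regulators, 3 of 20 were marked in both WT libraries and 0 of these in KO. Esco2, which acetylates SMC3 in S phase, had folds of 4.53 and 5.42 in WT, no peak in KO replicate 1 and 3.03 in KO replicate 2. Smc3, a core subunit, had 3.08 and 4.29 in WT and 2.86 and 3.29 in KO, which overlap. Cdca5, which encodes sororin, had 4.43 and 4.33 in WT and 1.75 in KO replicate 2 alone. At Stag1, the gene of the related subunit, WT folds were 1.82 and 2.12, neither called, and no KO peak was listed. Ctcf was called in WT replicate 2 and KO replicate 2 (4.06 and 4.23) and in neither of the other two. Lin54 and Rbl2, the genes of the proteins studied beside STAG2, had WT folds of 5.22 and 2.86 and of 2.64 and 2.45, of which the first alone was called. Rbl2 had no KO peak.

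The antibodies against LIN54, a DNA-binding subunit of the DREAM complex, and p130, its pocket protein, gave the change of called peaks in KO for comparison. In LIN54 libraries called peaks numbered 2134 to 6512 in WT (n = 3). In KO they numbered 12915 to 15641 (n = 2), which is a log2 ratio of 1.82. The ratio for STAG2 was -2.67, so both STAG2 KO libraries lay below both WT libraries and both LIN54 KO libraries above all 3 WT libraries. The difference was -4.49. Permuting genotype within each antibody gave it an exact p of 0.0167 over 60 arrangements, the smallest possible, and 0.0333 after Benjamini-Hochberg adjustment over 2 comparisons. That test takes neither antibody to change with genotype, so whether the changes are unequal was not tested separately. For p130, from other batches, the log2 ratio was -0.49 and the difference from STAG2 was -2.18 (exact permutation p 0.35, also the adjusted value).

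Most residual STAG2 regions overlapped a called LIN54 peak of at least 1 of the 5 LIN54 libraries. Of the 823 residual regions 18 (2.19%) overlapped no called LIN54 peak, against 35.8% of WT regions without a called KO peak. With all 5 libraries required, LIN54 was called at 348 residual regions (42.3%) and at 5.99% of those without a called KO peak. LIN54 was called in all 5 of its libraries at 64.8% of residual gene ends and at 13.7% of those without a called KO peak. In intergenic sequence the shares were 16.6% and 1.56%. Within the group of highest WT fold, gene ends with LIN54 in all 5 libraries were residual in 44.1% (of 347) and those with LIN54 in none in 0% (of 33). The corresponding distal shares were 49.3% (of 73) and 7.27% (of 55). p130 was called in at least 1 library at 41.5% of residual gene ends and at 4.81% of residual intergenic regions. In WT regions without a called KO peak those shares were 13.2% and 1.78%.

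LIN54 also gave a set of sites chosen without any STAG2 value: 1226 regions with a called LIN54 peak in all 5 libraries, of which 849 were at gene ends, 192 in flanks, 89 in gene bodies and 96 intergenic. STAG2 was called at 96.5% and 91.5% of them in WT and at 30.3% and 71.4% in KO. In KO replicate 1 the share was 29.3% at gene ends, 32.3% in flanks, 32.6% in gene bodies and 33.3% in intergenic sequence, so position made little difference here. Any deposited STAG2 peak was present in all 4 libraries at 1081 of these regions. There both KO folds lay below both WT folds in 725 regions (67.1%) and above both in 19 (1.76%). The same share over all STAG2 regions was not computed, so these values cannot be called particular to LIN54 sites. The median folds at these 1081 regions were 5.55 and 6.69 in WT and 3.34 and 4.30 in KO.

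**Figure D4:**
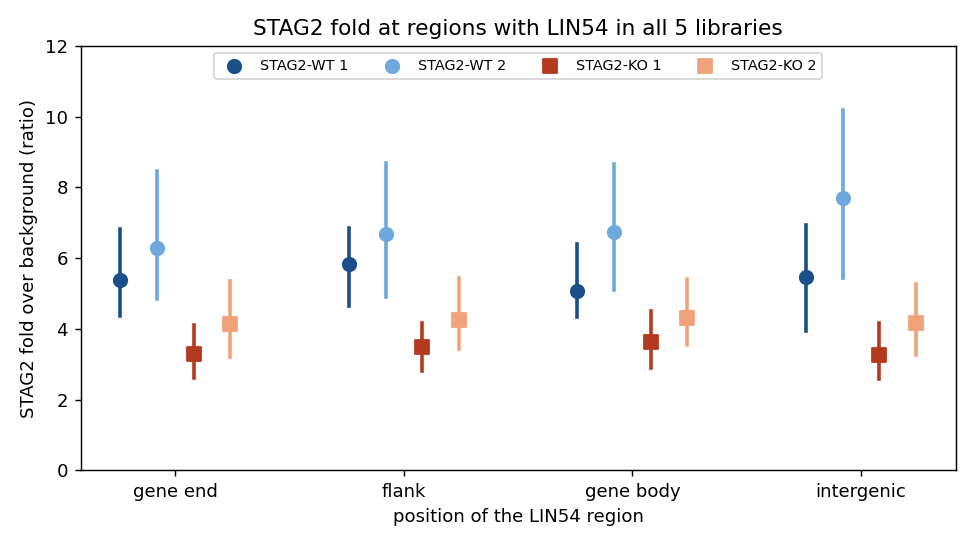
STAG2 fold over background at the 1226 regions where LIN54 was called in all 5 libraries, by class and library. Points are medians over the regions with a deposited STAG2 peak and lines span the quartiles. In every class both KO medians (3.25 to 4.30) lie below both WT medians (5.06 to 7.69).

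Marked 5′ ends outnumbered marked 3′ ends where strand was known. Among 13974 genes of at least 3 kb with a known strand, the 5′ end was marked in 4564 and 2747 genes in WT and in 395 and 1617 in KO. Among the 11876 of them whose 3′ end stood alone, with no other gene end within 1 kb, the 3′ end was marked in 125 and 82 genes in WT and in 5 and 35 in KO. The log2 ratio of KO to WT was -2.15 for 5′ ends and -2.94 for 3′ ends (exact permutation p 0.333 each). Over these same 11876 genes the 5′ end was marked in 3695 and 2215 in WT and in 326 and 1314 in KO. Per marked 3′ end that made 28.3 ± 1.80 marked 5′ ends (SD, n = 2) in WT. In KO it made 51.4 ± 19.6 (SD, n = 2), an exact permutation p of 0.333, and the lower KO count of 3′ ends was 5.

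Promoters that stayed in KO held a CCAAT box more often than those that went. In windows from 250 bases before to 50 after the start, 1 per gene for 16457 genes, CCAAT or ATTGG was present in 39.1% of all windows. It was present in 42.9% of the 1569 windows called in both WT and no KO library, 51.0% of the 1101 called in both WT and 1 KO library, and 63.2% of the 370 called in all 4. The gap was narrower with the 5000 best peaks of each library (54.8% without a KO peak and 63.6% in all 4) and at −log10 q of at least 5 (53.1% and 62.5%). The windows of these groups did not differ in composition to a like extent, with a median of 24, 23 and 22 CpG and a GC content of 62.7%, 63.0% and 62.0%. Other motifs varied less: the GC box (GGGCGG or CCGCCC) was in 75.2% of the windows without a called KO peak and 78.1% of the residual ones. The ETS motif (CCGGAAG or CTTCCGG) was in 22.1% and 18.9%. Residual promoters made up 8.65% of WT promoters without a CCAAT box, 13.5% of those with 1, 15.7% with 2 and 21.2% with 3 or more. The median lower WT fold rose along that series too, at 4.39, 4.48, 4.68 and 4.78. In the highest of 5 groups of promoters by WT fold, 67 of 134 windows without a called KO peak held a CCAAT box. Of residual windows there 134 of 217 (61.8%) did. In group 4 the shares were 48.6% and 70.7%. Groups 1 to 3, with 18 to 30 residual windows each, also had the higher share in residual windows. Residual shares by box number were not computed within groups. The share with a CCAAT box moved with LIN54 too, from 29.4% of WT promoters with LIN54 in none of its libraries to 64.9% of those with LIN54 in all 5. Among the latter it was 62.7% with no called KO peak, 63.8% with 1 and 68.6% with both, so within that group the shares lay closer together. CCAAT is 5 letters long and often present by composition alone, and a match is not evidence that a factor was bound.

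**Figure D5:**
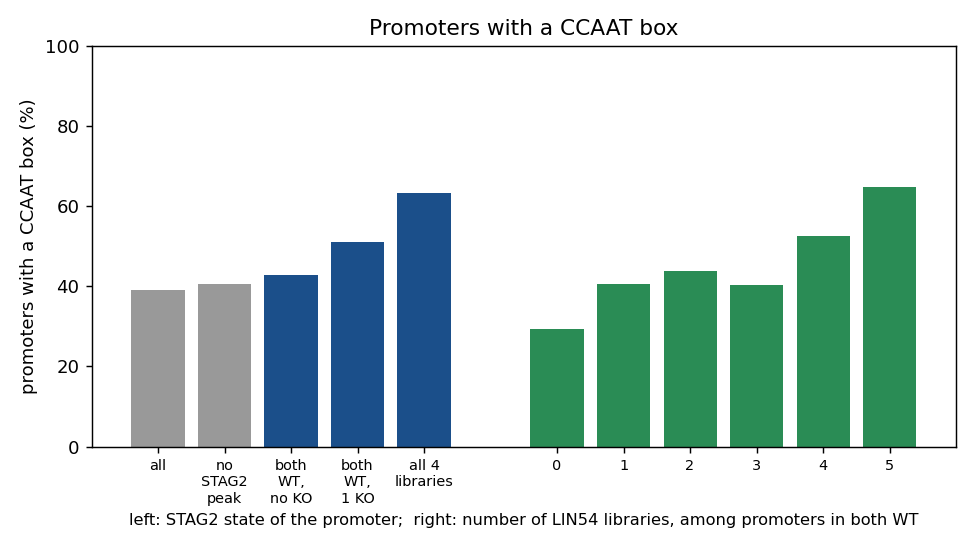
Share of promoter windows with CCAAT or ATTGG, in percent, by STAG2 state (left) and, among windows called in both WT libraries, by the number of LIN54 libraries with a called peak (right). The share is 42.9% without and 63.2% with a peak in both KO libraries, and 29.4% to 64.9% from 0 to 5 LIN54 libraries.

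The loss was spread over the genome. By chromosome, the share of WT regions without a called KO peak ranged from 49.3% on chromosome 19 to 59.4% on chromosome 13, and the residual share from 7.82% on chromosome 5 to 14.3% on chromosome 18.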

How the data were processed

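Peak lists of 15 CUT&RUN libraries were used, 4 of them with the STAG2 antibody, and the 2 pMNase samples were not analysed here. The tools were MACS2, Bowtie2 and bcl2fastq and the build mm10, per the submitters' processing notes. Versions, settings and any control library in the peak calls are not given in the sources used here. Each deposited peak has a fold enrichment (a ratio of summit pileup to background) and a −log10 p and −log10 q value, all made by the authors within one library. Fragments and background coverage were recovered from fold and p, and 100% of sampled summits gave whole fragments within 0.002 on the log10 scale. Where a list holds no peak, none was detectable at its depth.

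Peaks with −log10 q of at least 2 on chromosomes 1 to 19 were kept and classed by summit with RefSeq gene ends (20665 protein-coding genes of GRCm38.p6, to which mm10 corresponds, without strand). Strand and promoter sequence came from the RefSeq promoter table, which matched 16457 genes. Distal sequences were not used here. Numbers of peaks were compared over libraries by two-sided exact permutation tests, and the labels call the libraries biological replicates. Shares of regions and folds are descriptions. The members, gene lists, named-gene rule and settings were chosen with earlier results of these data known. Genes were named by rank. These were 10 residual ends by KO rank, 10 WT ends without a KO summit by WT fold, and 5 ends called in KO alone. Added were 5 distal sites of each kind per class, all cohesin genes and, by WT rank, up to 3 genes per list. Further names accompany counts of list members, and 1 gene chosen by the rule is not reported here. Alternatives were the deposited lists, −log10 q of at least 5, the 5000 best peaks, windows of 1000 bp, an intergenic distance of 20 kb, summits within 250 bp, fewer libraries, a replicate block and each library left out. A common −log10 p of 7 was added after seeing the data. Code in Python 3.11.15 with Matplotlib 3.10.9, pandas 2.3.3 and NumPy 2.4.6 was tested on simulated data.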

Additional observations from a re-analysis of the deposited data

Results flagged for a closer look

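The number of called peaks moved in opposite directions for these antibodies. Both STAG2 KO libraries lay below both WT libraries and both LIN54 KO libraries above all 3 WT libraries, and the log2 ratios of KO to WT differed by -4.49. The permutation of genotype within each antibody (exact p 0.0167) takes neither to change, so the difference itself was not tested. Both sets of libraries are labelled batch 1, and whether they came from the same cells is not given in the sources used here.

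Chromosome X, which holds Stag2 and was outside the comparison, carried called STAG2 peaks as well. There were 244 in WT replicate 1 and 148 in WT replicate 2, 0.944% and 1.11% of all called peaks of the library. In KO there were 7 in replicate 1 and 20 in replicate 2, 0.564% and 0.295%. Both KO percentages lay below both WT percentages, and the difference was not tested.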

How the results depend on the processing

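With 2 libraries a genotype no setting could pass a threshold of 0.05, so direction and size are what can be compared. In the deposited lists the loss of peaks nearly vanished, with log2 ratios of -0.32 at gene ends and -0.03 in intergenic sequence (exact permutation p 0.333 and 1). With the 5000 best peaks of each library, which fixes the totals, the intergenic ratio was 0.77. Under the other alternatives both ratios were at or below -1.24 or, for gene ends with the 5000 best peaks, -0.56. The gene-end minus intergenic difference took the opposite sign in the deposited lists (-0.29), at −log10 q of at least 5 (-0.13), with the 5000 best peaks (-1.33) and at −log10 p of at least 7 (-0.13). The mean share of WT regions found in a KO library became 69.1% at gene ends and 29.7% in intergenic sequence in the deposited lists, and 55.4% and 60.8% with the 5000 best peaks. With those 5000 it was 58.0% in gene bodies and 52.9% in flanks. The 823 residual regions became 16888 in the deposited lists, 179 at −log10 q of at least 5, 475 at −log10 p of at least 7 and 3650 with 3 of 4 libraries required. The cause of these moves was not tested. Leaving out 1 library gave log2 ratios of -3.32 to -1.24 at gene ends and -3.78 to -1.29 in intergenic sequence, and differences of 0.05 to 0.46. The shares of WT regions found ranged from 14.5% to 49.1% at gene ends and from 11.4% to 46.5% in intergenic sequence. The residual regions numbered 842 to 3495, the highest without KO replicate 1. Genes marked in all 4 libraries went from 365 to 1343 without that library, and those in both WT and no KO library from 1323 to 4593 without WT replicate 2. With the replicate number as a block, the same log2 values (-2.28, -2.54 and 0.25) had an exact sign-flip p of 0.5, the smallest that 2 pairs allow. The replicate number is itself in doubt, as the library name of WT replicate 2 carries the number 3. The labels do not say that equal numbers share an animal or a day, and with 2 pairs their deviations (r 0.12 over 3534 genes) do not settle it. Depth limits absence: a called peak rested on a median of 12 to 14.5 fragments.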
